A study of Homo sapiens with 90 samples.

Results

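The doses below 1 µM of fenbuconazole, imazalil and 2,4-D were examined in HepG2, an established cell line from a human liver tumour. Fenbuconazole and imazalil are azole fungicides, the first with a triazole ring and the second with an imidazole ring, and 2,4-D is a phenoxy acid herbicide. Cells were exposed for 24 h to a lower dose (0.001, 0.003 or 0.01 µM), to an upper dose (0.03, 0.1 or 0.3 µM) or to the DMSO vehicle alone, and every treated group held the same final amount of DMSO as the controls. All columns at these 6 doses were taken, 18 arrays per compound in 3 replicates per dose, together with the 3 DMSO arrays. That gave 63 of the 90 columns of the deposited table and 57 of its 84 different arrays, because each DMSO array occurs 3 times, once in the set of each compound. The other 27 treated arrays, at 1, 3 and 10 µM, were used to share the estimate of spread and as a reference for size. HepG2 is a single line, and the labels do not say whether replicates came from separate cultures, so the p-values measure only the spread between these arrays.

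Aryl hydrocarbon receptor (AHR) ligands induce CYP1A1, a monooxygenase that oxidizes planar aromatic compounds. Azoles bind the haem of cytochrome P450 enzymes, among them CYP51A1, the lanosterol demethylase of cholesterol synthesis, and a drop in sterols raises transcripts such as HMGCS1. TXNIP and ARRDC4 are arrestin-like genes under the control of the glucose sensor MondoA and are known for rapid changes with energy state.

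Each gene was represented by 1 probe set, and values are log2 intensities, normalized by the authors within each compound's set. Differences between groups are log2 differences, given with their standard error (SE). A gene was called at a Benjamini-Hochberg adjusted p under 0.05 in limma over 19774 genes. The number of arrays limits the precision. The median SE was 0.089 for fenbuconazole, 0.087 for imazalil and 0.081 for 2,4-D in the comparison of all 6 doses with DMSO. Hepatocyte markers (9 genes measured) averaged between 11.72 and 11.93 on every treated array and between 11.77 and 11.89 on every DMSO array. Of the markers of other cells, 7 of 10 mesenchymal and 9 of 10 blood and endothelial genes had a mean under 4. The brightest member of each list was not dim, with a mean of 8.08 and 11.01. The interquartile range of the arrays and the 3′ minus 5′ signal of ACTB, a measure of RNA integrity, overlapped between DMSO and treated arrays in each set, as did that of GAPDH. The replicate codes and serial numbers of the labels are not explained. Within each replicate code the serial number fell with dose for every compound, so dose and label order cannot be told apart. Within each code DMSO came first, followed by 2,4-D, fenbuconazole and imazalil, so label order cannot be told apart from the offset or from the differences between compounds either.

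The first comparison asked whether any gene differed between DMSO and the 6 doses pooled. None was called by limma for any compound, which is 0% of the genes for fenbuconazole, 0% for imazalil and 0% for 2,4-D. At an unadjusted p under 0.05 there were 464, 628 and 704 genes, or 2.35%, 3.18% and 3.56%. The largest differences over all genes were between -0.47 and 0.43, and 0 genes reached 1.5-fold. The 95% interval of the difference lay within 1.5-fold in either direction for 99.7% of the genes with fenbuconazole, 99.7% with imazalil and 99.9% with 2,4-D. These shares include the dim genes near the background, as 50.4% of all genes had a mean under 4. The lower 3 doses alone and the upper 3 doses alone (0.03 to 0.3 µM) also gave 0 genes against DMSO, with 531 and 510 genes at the unadjusted threshold for fenbuconazole, 671 and 691 for imazalil, and 795 and 684 for 2,4-D. Each of the 18 single doses gave 0 called genes against DMSO (0%) in limma, where between 464 and 1160 genes had an unadjusted p under 0.05. Without DMSO replicate 3, 1 gene, POM121L10P, was called at the upper 3 doses of 2,4-D (-0.57 ± 0.094, adjusted p = 0.0474 in limma), against -0.32 ± 0.11 with all 3 DMSO arrays.

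The genes with the lowest p at single doses of 2,4-D included SLAMF7, a receptor of lymphoid cells, at 0.3 µM (0.52 ± 0.094, adjusted p = 0.196 in limma) and OAS1, an interferon-induced synthetase, at 0.01 µM (0.70 ± 0.15, adjusted p = 0.999). For imazalil they were C11orf86 at 0.001 µM (-0.57 ± 0.11, adjusted p = 0.458) and ZNF555, a zinc finger gene, at 0.3 µM (-0.49 ± 0.094, adjusted p = 0.385). For fenbuconazole the adjusted p was 1 at all 6 doses. EXOC3, a subunit of the exocyst that tethers secretory vesicles, had the lowest p at 0.003 µM for both fenbuconazole (0.46 ± 0.11) and 2,4-D (0.42 ± 0.082), which share their DMSO arrays.

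The same 3 DMSO arrays stand behind all 3 compounds, so whatever sets those arrays apart enters each comparison with DMSO. This shared-control offset was measured as the mean of all 54 treated arrays minus DMSO, with each DMSO array counted once. It gave 0 called genes (0% of 19774, lowest adjusted p = 0.786 in limma) and 415 genes at an unadjusted p under 0.05, or 2.1%. The 95% interval of the offset was within 1.5-fold for 99.9% of the genes, dim genes included, and its median SE was 0.085.

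The 3 highest and 3 lowest offsets did not pass the threshold. RRAD, a Ras-related GTPase, was at 0.36 ± 0.13, and CD82, a tetraspanin of the cell membrane, at 0.32 ± 0.095. EXOC3 was at 0.31 ± 0.074 (95% interval 0.16 to 0.46). IFI27, an interferon-inducible gene, was at -0.36 ± 0.098. RAB3B, a GTPase of regulated secretion, was at -0.35 ± 0.11, and ZNF583, a zinc finger gene, at -0.34 ± 0.095. ZNF583 was at -0.14 without replicate 2 and at -0.53 without replicate 3, and IFI27 at -0.19 without either replicate 2 or DMSO replicate 2 alone. A second, dim probe set of RRAD was at -0.01 ± 0.11, and that of ZNF583 at -0.05 ± 0.10. WIF1, a secreted inhibitor of Wnt signalling that was chosen after its values were seen, had the lowest p of all genes, at -0.30 ± 0.067. Adjusted p-values were 1 for the 6 genes and 0.786 for WIF1.

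EXOC3 read 4.82, 4.90 and 4.80 on the 3 DMSO arrays of the fenbuconazole set, against a lowest of 4.91, a median of 5.20 and a highest of 5.47 over the 18 treated arrays. In the imazalil set the DMSO arrays read 5.02, 5.01 and 5.09 and the treated arrays 5.07 to 5.63, with a median of 5.33. In the 2,4-D set they read 5.24, 5.21 and 5.21 against 5.29 to 5.72, with a median of 5.51. All 18 treated arrays of fenbuconazole, 17 of imazalil and all 18 of 2,4-D lay above every DMSO array. A second, dimmer EXOC3 probe set gave an offset of 0.06 ± 0.13. Upper and lower doses of EXOC3 did not differ beyond their error in the 3 compounds together (-0.04 ± 0.035, a comparison without DMSO arrays).

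WIF1 was dim and lay the other way. The DMSO arrays read 2.86, 2.62 and 2.63 in the fenbuconazole set, where the 18 treated arrays ran from 2.19 through a median of 2.38 to 2.57. They read 2.80, 2.61 and 2.52 against 2.16 to 2.55 (median 2.37) in the imazalil set, and 2.79, 2.60 and 2.59 against 2.17 to 2.55 (median 2.33) in the 2,4-D set. The treated arrays were below all DMSO arrays in 18, 17 and 18 cases. For IFI27 DMSO replicate 2 stood above the other two. It read 3.36, 3.35 and 3.46 in the 3 sets, while the other two read 2.84 and 3.03 with fenbuconazole, 2.68 and 2.73 with imazalil, and 2.96 and 3.01 with 2,4-D. The treated medians of IFI27 were 2.67, 2.56 and 2.82. RAB3B stood below all DMSO arrays on 15, 16 and 18 of the treated arrays, and its 4 other probe sets gave offsets between -0.13 ± 0.11 and -0.05 ± 0.14.

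**Figure D1:**
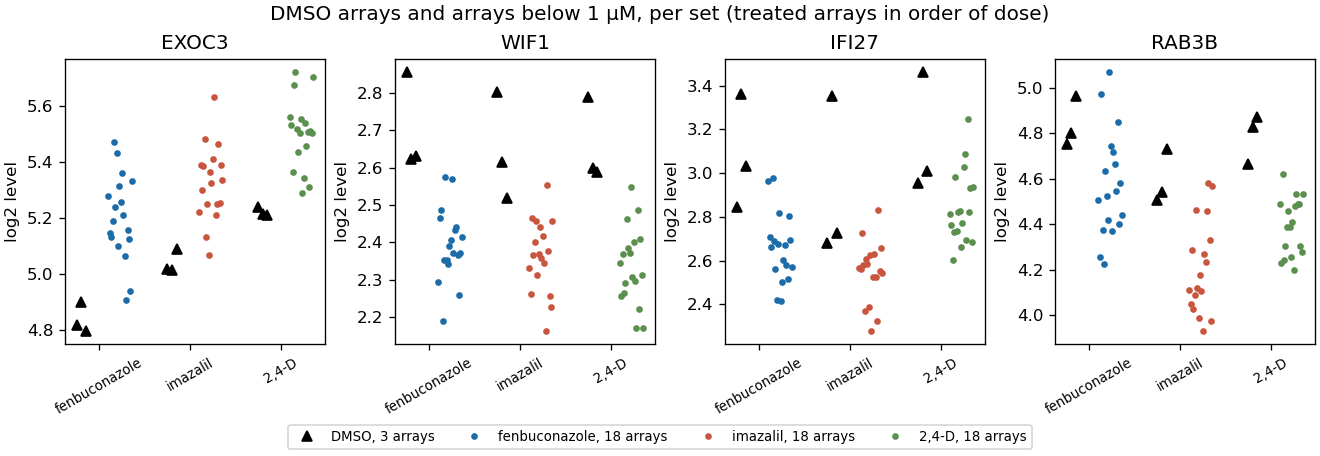
Log2 level of EXOC3, WIF1, IFI27 and RAB3B on each array, by compound set (x axis). Black triangles are the 3 DMSO arrays, the same arrays in each set, and coloured points are the 18 treated arrays below 1 µM from the lowest dose at the left to the highest at the right. All EXOC3 points except 1 of imazalil lay above the DMSO arrays, and WIF1 lay the other way.

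Few genes had treated arrays that were all outside the range of the DMSO arrays. For fenbuconazole there were 13 genes of 19774, 8 with all treated arrays higher and 5 lower, among them EXOC3, WIF1 and ISG15, an interferon-induced modifier. For imazalil there were 9, of which 3 were higher and 6 lower. For 2,4-D there were 18, of which 5 were higher and 13 lower, with EXOC3, WIF1 and RAB3B among them. None of these genes was called against DMSO in any set (0%).

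The genes called at 10 µM show the sizes of difference that these arrays could call. At 10 µM limma called 3 genes for fenbuconazole (0.0152% of the genes), 21 for imazalil (0.106%) and 0 for 2,4-D (0%). Over DMSO, CYP1A1 was 3.01 higher with imazalil and 1.65 higher with fenbuconazole at that dose. With imazalil it was 1.93 higher at 3 µM and called (adjusted p = 2.94e-05 in limma). At 1 µM it was 1.15 higher and not called (adjusted p = 0.196). The smallest difference called at 10 µM was -0.33, of CLDN1 with imazalil. The imazalil genes also included MCC, a negative regulator of the cell cycle (1.04), and TXNIP (-0.85). The other fenbuconazole genes were ARRDC4 (-0.71) and ACSS2, an acetyl-CoA synthetase (0.56).

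Below 1 µM CYP1A1 did not pass any of these tests. In the imazalil set the DMSO arrays read 4.37, 4.85 and 4.63, and the 18 treated arrays ran from 4.34 through a median of 4.75 to 5.41, so the groups overlapped. The mean difference from DMSO was 0.05 at 0.001 µM, 0.29 at 0.003 µM, 0.21 at 0.01 µM, -0.06 at 0.03 µM, 0.40 at 0.1 µM and 0.51 at 0.3 µM. At 0.3 µM the 3 arrays read 4.72, 5.24 and 5.41, 2 of them above every DMSO array. Against the 5 lower doses, with no DMSO array in the comparison, CYP1A1 at 0.3 µM was higher by 0.33 ± 0.16 (95% interval -0.01 to 0.66, unadjusted p = 0.0556 and adjusted p = 1 in limma). Pooled over the 6 doses it was 0.23 ± 0.16 above DMSO with imazalil, 0.06 ± 0.16 with fenbuconazole and -0.09 ± 0.090 with 2,4-D. The treated arrays ran from 4.34 to 5.09 with fenbuconazole and from 4.33 to 4.66 with 2,4-D, both inside or close to the range of the controls.

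The genes called at 10 µM were followed as a group into the lower doses. In the upper minus the lower 3 doses, 11 of the 21 imazalil genes lay in the direction of their 10 µM difference and 0 were called, with a median of 0.01 towards it. At 0.3 µM against the 5 lower doses 16 of the 21 lay in that direction and 0 were called, with a median of 0.04. Of the 3 fenbuconazole genes 1 lay in the direction of its 10 µM difference in either comparison. The comparison of 0.3 µM with the 5 lower doses gave 0 called genes over all genes for fenbuconazole, imazalil and 2,4-D (0% each, with 579, 579 and 702 at an unadjusted p under 0.05).

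**Figure D2:**
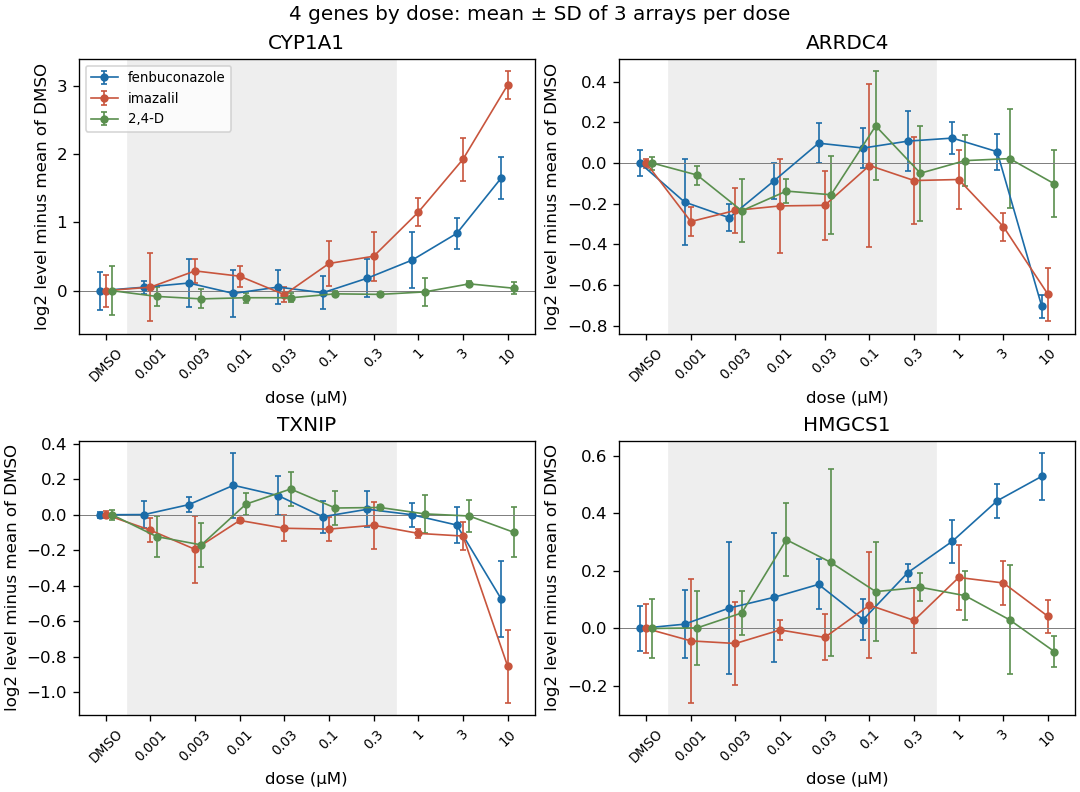
Log2 level minus the mean of DMSO (y axis) by dose in µM (x axis, evenly spaced) for CYP1A1, ARRDC4, TXNIP and HMGCS1, as means ± SD of 3 arrays per dose, with doses below 1 µM shaded. CYP1A1 with imazalil stood at 0.51 at 0.3 µM and 3.01 at 10 µM, and ARRDC4 with fenbuconazole at 0.11 and -0.71.

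The comparison of the upper 3 with the lower 3 doses holds no DMSO array, so an offset of the controls cancels out of it. It called 0 genes for fenbuconazole (0%), imazalil (0%) and 2,4-D (0%), with 1048, 1157 and 1047 genes at an unadjusted p under 0.05 in limma. With the replicate number as a block it called 2 genes for fenbuconazole, BHLHE40 (0.42 ± 0.057, adjusted p = 0.00399) and ADAD1 (-0.35 ± 0.059, adjusted p = 0.0454). An F test for any difference among the 6 doses also called 0 genes for each compound (0%), with 626, 880 and 1300 genes at the unadjusted threshold. ADAD1 was the lone gene whose upper and lower doses did not overlap in any compound. It is a dim gene of the germ line. With fenbuconazole its 9 lower-dose arrays ran from 2.77 to 3.11 and its 9 upper-dose arrays from 2.39 to 2.70, a difference of -0.35 ± 0.061 (adjusted p = 0.103 in limma). A second ADAD1 probe set, also dim, lay in the opposite direction at 0.16 ± 0.069 (unadjusted p = 0.0312). In the other sets it was at -0.06 ± 0.072 with imazalil and -0.06 ± 0.061 with 2,4-D.

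ARRDC4 was next for fenbuconazole, at 0.28 ± 0.054 (adjusted p = 0.248 in limma). Its DMSO arrays read 5.85, 5.74 and 5.85, its lower-dose arrays 5.39 to 5.82 with a median of 5.66, and its upper-dose arrays 5.80 to 6.09 with a median of 5.87. This direction is opposite to the -0.71 at 10 µM. ARRDC4 was at 0.14 ± 0.083 with imazalil and 0.14 ± 0.076 with 2,4-D. TXNIP was at -0.03 ± 0.056 with fenbuconazole, 0.03 ± 0.053 with imazalil and 0.15 ± 0.048 with 2,4-D, none past the threshold. Against DMSO, TXNIP with imazalil read 8.61, 8.65 and 8.63 on the controls and 8.28 to 8.72 on the treated arrays, 13 of 18 below every control, where its 10 µM difference was -0.85. For imazalil the lowest p belonged to FFAR2, a receptor for short-chain fatty acids (0.21 ± 0.043), and GPER1, a membrane oestrogen receptor (-0.24 ± 0.048), both with an adjusted p of 0.401.

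The same comparison over all 3 compounds together was added after the data had been seen. It called 4 genes in limma (0.0202%), with 1104 genes at an unadjusted p under 0.05. AKR1C1 and AKR1C2, aldo-keto reductases that inactivate steroids, were lower at the upper doses, by -0.13 ± 0.018 (adjusted p = 0.000232) and -0.14 ± 0.021 (adjusted p = 0.000991). SLC30A1, the zinc exporter of the plasma membrane, was lower by -0.14 ± 0.028 (adjusted p = 0.0437). BHLHE40, a transcriptional repressor that responds to hypoxia and to the circadian clock, was higher by 0.29 ± 0.053 (adjusted p = 0.0129). These are changes of 0.914-fold, 0.910-fold, 0.906-fold and 1.22-fold.

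AKR1C1 was among the brightest genes. In the fenbuconazole set the DMSO arrays read 12.51, 12.64 and 12.54, the 9 lower-dose arrays ran from 12.45 to 12.73 with a median of 12.55, and the 9 upper-dose arrays from 12.43 to 12.60 with a median of 12.44. In the imazalil set the DMSO arrays read 12.50, 12.66 and 12.55, the lower doses 12.57 to 12.81 (median 12.73) and the upper doses 12.43 to 12.61 (median 12.52). In the 2,4-D set the DMSO arrays read 12.54, 12.72 and 12.59, the lower doses 12.52 to 12.74 (median 12.58) and the upper doses 12.41 to 12.59 (median 12.49). The groups overlapped in each set. The DMSO mean lay between the means of the dose groups in the fenbuconazole and imazalil sets, and at 12.62 just above the lower-dose mean of 12.61 in the 2,4-D set. All 54 treated arrays together were at -0.02 ± 0.040 against DMSO.

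The dose profile of AKR1C1 was not a simple slope. Its highest mean over DMSO below 1 µM was at 0.003 µM, at 0.12 with fenbuconazole, 0.19 with imazalil and 0.07 with 2,4-D. Its means at 0.1 µM were -0.12, -0.04 and -0.17, and at 10 µM it was above DMSO again, at 0.23, 0.15 and 0.19. The differences of BHLHE40 and SLC30A1 did not continue to 10 µM either. Against DMSO, the BHLHE40 arrays there ran from -0.19 to 0.235 with fenbuconazole, -0.36 to 0.08 with imazalil and -0.36 to -0.18 with 2,4-D. Those of SLC30A1 ran from -0.20 to 0.23, -0.08 to 0.11 and -0.01 to 0.15. Among all genes AKR1C1, AKR1C2 and PLCXD1 passed the F test for any difference among the 6 doses over the 3 compounds together, which is 3 genes (0.0152%, with 799 at an unadjusted p under 0.05), with adjusted p-values of 0.000215, 0.00209 and 0.033 in limma. A test of whether the dose profiles differed between compounds gave 0 genes (0%, with 709 at an unadjusted p under 0.05). For AKR1C1 its unadjusted p was 0.777.

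The compounds were also taken one by one for these 4 genes. The difference for AKR1C1 was -0.11 ± 0.035 with fenbuconazole, -0.17 ± 0.038 with imazalil and -0.11 ± 0.033 with 2,4-D. BHLHE40 was at 0.42 ± 0.099 (0.42 ± 0.057 and called with the replicate block), 0.20 ± 0.083 and 0.26 ± 0.079, and SLC30A1 at -0.14 ± 0.056, -0.13 ± 0.055 and -0.15 ± 0.045. The 4 genes were picked on these same arrays, so agreement among parts of the arrays is not separate support. Over all genes, 24.4% had the same direction in the 3 compounds. For each of the 4 genes the direction of the difference was the same in 9 of 9 combinations of compound and replicate. It ran from -0.24 to -0.06 for AKR1C1, -0.21 to -0.08 for AKR1C2, 0.16 to 0.47 for BHLHE40 and -0.27 to -0.04 for SLC30A1. AKR1C3, another member of the family, was at -0.09 ± 0.024 over the 3 compounds (adjusted p = 0.253). None of the 4 genes passed the threshold when any 1 replicate number or any 1 compound was left out, and their adjusted p-values then ran from 0.0621 to 0.957. The differences themselves kept their direction in these subsets of the arrays that picked the genes. They ran from -0.14 to -0.11 for AKR1C1, -0.15 to -0.12 for AKR1C2, 0.23 to 0.34 for BHLHE40 and -0.18 to -0.11 for SLC30A1.

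Other probe sets bear on these genes in part. The AKR1C genes are near-identical copies whose transcripts can bind each other's probes, so AKR1C1 and AKR1C2 may not be separate measurements. Of 4 further AKR1C1 probe sets, 3 were lower at the upper doses, at -0.17 ± 0.019, -0.33 ± 0.047 and -0.33 ± 0.079, and a dim one was at -0.04 ± 0.049. The 2 further AKR1C2 probe sets were at -0.18 ± 0.022 and, for a dim one, 0.01 ± 0.032. The second probe set of BHLHE40, a dim one with a mean of 3.63, was at 0.11 ± 0.055. That of SLC30A1 was not dim, with a mean of 6.99, and did not show the difference, at -0.02 ± 0.036. Because the serial numbers of the labels fell with dose in all 9 runs, the label order moved with this comparison, and its part in the difference was not tested. The 3′ minus 5′ signal of GAPDH also differed with imazalil, with a median of -0.17 (-0.27 to -0.07) at the lower doses, -0.10 (-0.13 to -0.08) at the upper doses and -0.11 in DMSO, and its part was not tested. Its medians at lower and upper doses were -0.08 and -0.10 with fenbuconazole and -0.08 and -0.09 with 2,4-D.

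**Figure D3:**
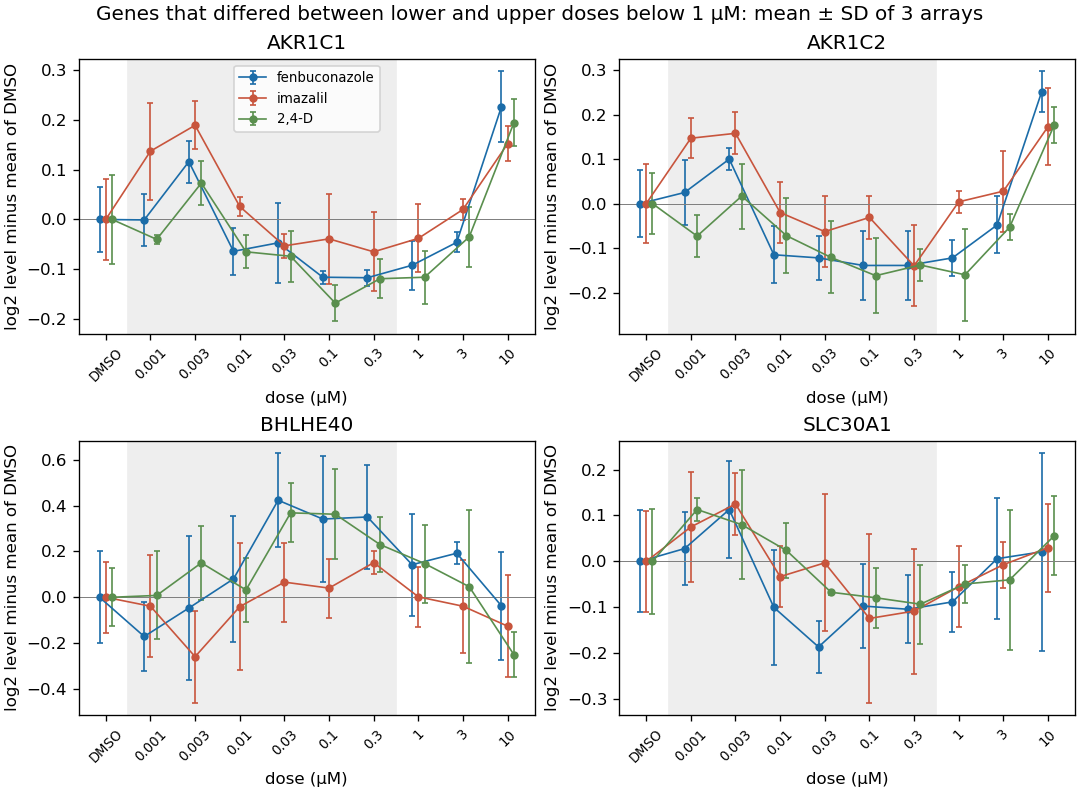
Log2 level minus the mean of DMSO (y axis) by dose in µM (x axis, evenly spaced) for the 4 genes called between the upper and the lower 3 doses, as means ± SD of 3 arrays per dose and compound, with doses below 1 µM shaded. AKR1C1 and AKR1C2 were higher at 0.003 µM than at 0.1 and 0.3 µM and above DMSO at 10 µM in all 3 compounds, and BHLHE40 was higher at 0.03 to 0.3 µM than at the lower doses.

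The last comparison asked whether a compound departed from the other two by more than the shared offset. Values were first taken relative to the mean of the DMSO columns of the same set. Fenbuconazole differed from the mean of the other two compounds in 30 genes (0.152%), 16 higher and 14 lower. Imazalil differed in 44 (0.223%), 21 higher and 23 lower, and 2,4-D in 14 (0.0708%), 6 higher and 8 lower. Between pairs at matched doses, imazalil and fenbuconazole, which differ in their azole ring among other parts, differed in 37 genes (0.187%). Fenbuconazole and 2,4-D differed in 19 (0.0961%) and imazalil and 2,4-D in 8 (0.0405%). Adjusted over the 3 pairs together, the counts were 27, 19 and 15. The 6 counts ran between 0 and 92 when 1 replicate number was left out, its treated and DMSO arrays alike. They ran between 75 and 238 when 1 DMSO array alone was left out. These tests treat the DMSO means as known. With the error between copies of the DMSO arrays added, 0 genes were called in all 6 comparisons, by a t test on the combined SE. In the order given, 1117, 1205, 1008, 1255, 1005 and 1105 genes had an unadjusted p under 0.05 in that test.

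The differences were small and lay mostly in dim genes. The called genes differed by 0.08 to 0.30. Their share with a mean under 4 was 76.7% for fenbuconazole, 70.5% for imazalil and 78.6% for 2,4-D against the other two, where it was 50.4% over all genes. Copies of the same DMSO array in different sets correlated across genes at 0.9990 to 0.9992, and different DMSO arrays within a set at 0.9960 to 0.9973. The median absolute difference between sets of the DMSO copies was 0.108 among the fenbuconazole genes, 0.071 among the imazalil genes and 0.078 among the 2,4-D genes, against 0.045, 0.046 and 0.050 over all genes. The calls were made on values minus the DMSO means, so the selection itself favoured genes with large copy differences. CRYGD, a crystallin of the lens, was 1 called gene with a large copy difference. The same 3 DMSO arrays read 2.45, 2.95 and 3.04 in the fenbuconazole set and 2.87, 3.58 and 3.57 in the imazalil set, whereas the treated medians were 2.78 and 3.06. Its called difference between imazalil and the other two was -0.27 ± 0.044 (adjusted p = 0.00354 in limma), while the DMSO copies themselves differed by 0.36 in the same contrast. With the copy error it was -0.27 ± 0.069 (adjusted p = 0.631).

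**Figure D4:**
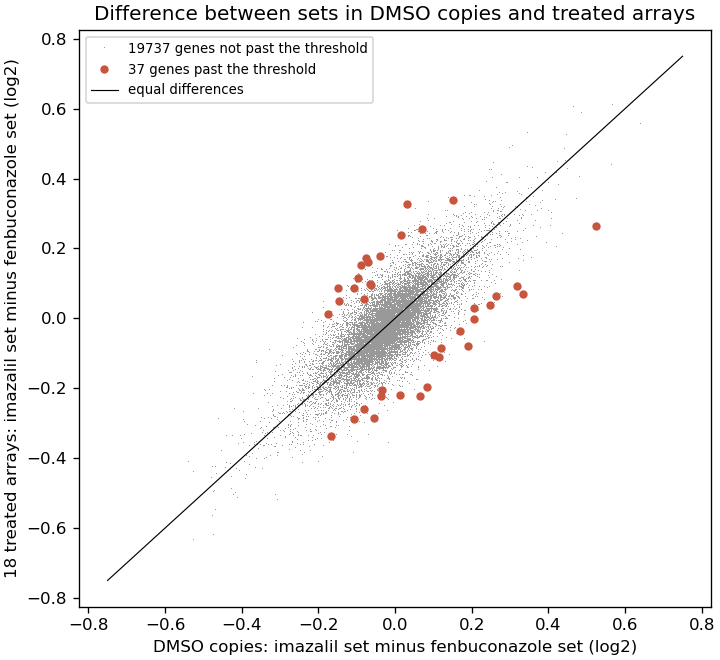
Mean difference between the imazalil and the fenbuconazole set on the log2 scale, for the 3 DMSO copies (x axis) and the 18 treated arrays (y axis), 1 point per gene. The line marks equal differences, and the 37 red genes were called, 16 above it and 21 below it.

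Among the genes called for fenbuconazole against the other two were DUSP23, a dual-specificity phosphatase (-0.24 ± 0.039), and UNC93B1, a chaperone of endosomal Toll-like receptors (0.27 ± 0.057). ZBTB49, a zinc finger transcription factor (0.27 ± 0.047), ZNF514 (0.26 ± 0.049) and RENBP, a renin-binding epimerase (0.24 ± 0.039), were also called. For imazalil they included CYP26B1, which hydroxylates retinoic acid (0.25 ± 0.044), GOLGA8H of the golgin family (0.19 ± 0.032) and S100A14, a calcium-binding protein (-0.30 ± 0.069). For 2,4-D they included TRPV4, a cation channel (-0.25 ± 0.051), CYTH4, an exchange factor of ARF GTPases (-0.25 ± 0.051), and THAP10, a zinc finger gene (0.23 ± 0.047). GRHL1, a Grainyhead transcription factor, was at 0.17 ± 0.034. With the copy error the adjusted p of GOLGA8H went from 0.00354 to 0.236, and those of the other genes named here lay between 0.426 and 0.942. Further probe sets of these genes lay closer to 0. The second of CYP26B1 was at 0.05 ± 0.041, those of UNC93B1 at 0.01 ± 0.046 and 0.03 ± 0.039, those of CYTH4 at 0.03 ± 0.041 and -0.05 ± 0.046, and that of GRHL1 at 0.07 ± 0.063, all but that of GRHL1 with a mean under 4.

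CYP26B1 read 2.44, 2.55 and 2.74 on the DMSO arrays of the imazalil set, and its treated arrays ran from 2.50 through 2.83 to 3.24, 13 of 18 above every DMSO array. In the fenbuconazole set the DMSO arrays read 2.63, 2.62 and 2.70 and the treated arrays 2.54 to 2.82, and in the 2,4-D set 2.78, 2.71 and 2.89 against 2.51 to 3.04. S100A14 read 3.83, 3.92 and 3.86 on the DMSO arrays of the imazalil set against 3.13 to 4.04, and 15 of 18 treated arrays were lower than all 3 controls. THAP10 read 4.81, 4.60 and 4.77 on the DMSO arrays of the 2,4-D set against 4.58 to 5.40, and 16 of 18 treated arrays were higher. Groups overlapped for all 3 genes.

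Apart from AKR1C1, the genes of the known responses named here were not called between compounds in the main setting. The SE and intervals of that setting leave out the copy error. CYP1A1 with imazalil was 0.25 ± 0.066 above the other two compounds (95% interval 0.11 to 0.38, adjusted p = 0.0993 in limma). With the replicate number as a block the adjusted p was 0.0254, and with the copy error it was 0.647. The difference was 0.36 without replicate 1 (adjusted p = 0.0473), 0.23 without replicate 2 (adjusted p = 0.323) and 0.15 without replicate 3 (adjusted p = 0.292). Without DMSO replicate 1, 2 or 3 it was 0.30, 0.23 and 0.21 (adjusted p = 0.0152, 0.0757 and 0.0987). TXNIP with imazalil was at -0.12 ± 0.031 (adjusted p = 0.0943) and with fenbuconazole at 0.10 ± 0.031 (adjusted p = 0.174). The imazalil value was called with the interquartile range as a covariate (-0.15, adjusted p = 0.00404), a range that itself differed between sets. It was also called without DMSO replicate 1 or 2 (adjusted p = 0.0415 and 0.0439), and its adjusted p was 0.631 with the copy error. HMGCS1, the HMG-CoA synthase of the mevalonate pathway, was at 0.03 ± 0.043 with fenbuconazole (95% interval -0.06 to 0.11), -0.12 ± 0.043 with imazalil and 0.10 ± 0.043 with 2,4-D, none past the threshold. CYP51A1 lay between -0.06 and 0.04 in the 3 compounds, with 95% intervals that reached from -0.12 to 0.10. ALAS1, of haem synthesis, CYP3A4, a drug-metabolizing P450, and HMOX1, the inducible haem oxygenase, lay between -0.05 and 0.03. AKR1C1 was the one list member called, 0.08 ± 0.019 higher with imazalil than with the other two (adjusted p = 0.0421). Without any 1 replicate number its adjusted p was 0.132 to 0.238, and with the copy error 0.658.

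The pathway lists held 230 genes in 19 lists, 210 of them measured. Across the lists the medians of the 6 doses against DMSO lay between -0.051 and 0.054 for fenbuconazole, -0.062 and 0.025 for imazalil, and -0.070 and 0.038 for 2,4-D, where the median of all genes was -0.003, -0.007 and -0.006. No list member was called (0 of 210 in each compound). The 8 AHR targets had medians of 0.004, -0.024 and -0.070, with 4, 3 and 3 above 0. Of the 18 genes of cholesterol synthesis and uptake, 15 lay above 0 with fenbuconazole (median 0.044, 0 at an unadjusted p under 0.05), 6 with imazalil (median -0.012) and 11 with 2,4-D (median 0.012). HMGCS1 was at 0.10 ± 0.078, 0.00 ± 0.077 and 0.14 ± 0.091 and CYP51A1 at 0.04 ± 0.072, -0.03 ± 0.066 and 0.03 ± 0.061. Of 11 measured targets of the xenobiotic receptors PXR and CAR, 8, 9 and 7 lay above 0, with CYP3A4 at -0.02 ± 0.064, -0.02 ± 0.10 and -0.03 ± 0.049. The 6 genes of metallothioneins and zinc all lay at or below 0 in the 3 compounds, with medians of -0.051, -0.029 and -0.063. The 3 comparisons share their DMSO arrays, so agreement between compounds is not 3 separate observations. All 10 p53 targets lay below 0 with imazalil (median -0.041), where CDKN1A, the cell cycle inhibitor p21, was at -0.01 ± 0.077. Because the median of all genes was below 0 in each compound, at least as many of all genes lay below 0 as above it.

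Between the upper and the lower doses the list medians lay between -0.056 and 0.068 for fenbuconazole, -0.086 and 0.057 for imazalil, and -0.032 and 0.027 for 2,4-D. Hypoxia genes had the lowest median with imazalil (-0.086, 2 of 11 above 0), led by NDRG1 at -0.18, and a median of 0.019 in both other compounds. The 7 genes of MondoA and ChREBP were highest with fenbuconazole (median 0.068), led by ARRDC4 at 0.28. Over the 3 compounds together 10 of 13 immediate early genes lay above 0 (median 0.061, against 0.003 over all genes). Of these 13 genes 5 had an unadjusted p under 0.05 in limma, whereas over all genes the share was 5.58%. All 13 hepatocyte secreted proteins lay below 0 (median -0.020), against a median of 0.003 over all genes, and 1 had an unadjusted p under 0.05. The members called in that comparison were AKR1C1 of the NRF2 list and SLC30A1 of the zinc list. The other 9 genes of the NRF2 list did not pass the threshold, and the list median was -0.013. The markers of mesenchymal cells and of blood and endothelial cells had medians of 0.017 and 0.012.

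**Figure D5:**
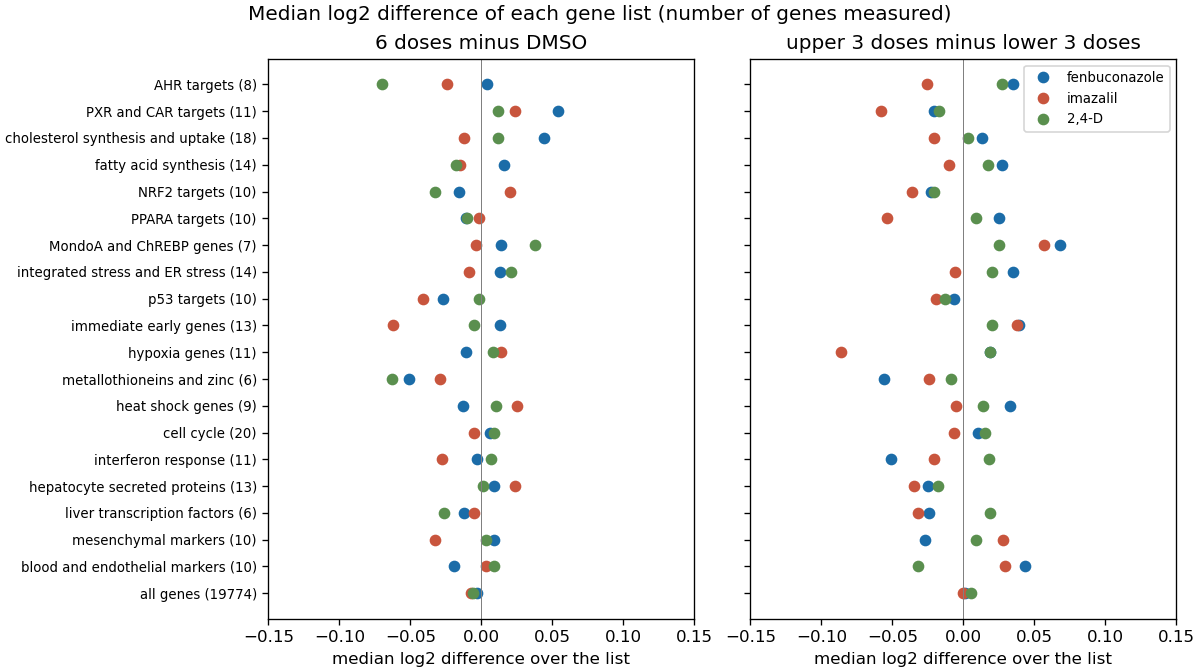
Median log2 difference of each gene list (x axis) for the 6 doses below 1 µM minus DMSO (left) and for the upper minus the lower 3 doses (right), with the number of genes measured beside each list name and 1 point per compound. The medians lay between -0.09 and 0.07, and all genes together (bottom) lay near 0.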

How the data were processed

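The deposited table held log2 probe set intensities of Affymetrix arrays. Per the labels, the authors normalized them by RMA within each compound's set, so each of the 3 DMSO arrays has 3 differently normalized copies, and the processing notes name RMA and Partek. Their versions and options are not given in the sources used here. Of 54715 probe sets, 102 were controls, 40914 had 1 gene symbol, 864 several and 12835 none. For each gene the brightest single-symbol probe set, by its mean over the 90 columns, was kept (19774 genes), dim genes included.

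In R 4.3.3 with limma 3.58.1, a linear model with a mean for every dose and no replicate block was fitted to each set's 30 columns (lmFit, then eBayes), and p-values were adjusted by Benjamini-Hochberg within each comparison (threshold 0.05, all tests two-sided). Differences between compounds were fitted to the 54 treated columns after subtraction of the DMSO mean of their set. For the copy error, the difference between copies was fitted in limma over the 3 DMSO arrays. Its squared SE was added to that of the treated fit, and a t test with approximated degrees of freedom was used. The offset counted each DMSO array once, as the mean of its copies. The scripts were tested on simulated data. Genes were named as the largest or lowest-p genes of each comparison, called list members, and a group of known response genes. Members and lists were chosen with earlier results of these data known, and the comparisons over all 3 compounds, of 0.3 µM with the lower doses and with the copy error were added after the data had been seen. Alternatives covered the replicate block, the arrays in the fit, the variance model, a filter at a mean of 4, every probe set, quantile normalization, the array interquartile range, and each replicate, DMSO array, dose and compound left out. Of the lists, 20 genes had no single-symbol probe set in use here.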

Additional observations from a re-analysis of the deposited data

Results flagged for a closer look

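A total of 6 differences between compounds below 1 µM passed the test of the difference itself. Against the mean of the other two compounds, 30 genes differed for fenbuconazole, 44 for imazalil and 14 for 2,4-D. Between pairs, 37 genes differed between imazalil and fenbuconazole, 19 between fenbuconazole and 2,4-D, and 8 between imazalil and 2,4-D. With the error of the DMSO copies added, the lowest adjusted p-values of the 6 comparisons were 0.443, 0.236, 0.723, 0.472, 0.536 and 0.764 in a t test on the combined SE.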

How the results depend on the processing

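In the main setting 23 results called 0 genes, and all but 5 of their alternative values were also 0. The exceptions were the upper minus lower doses of fenbuconazole with the replicate block (2 genes, ADAD1 and BHLHE40), of imazalil with a trended variance (2, AKR1C1 and AKR1C2) and with every probe set (1, of AKR1C2), of 2,4-D with every probe set (1, of AGAP11), and the upper doses of 2,4-D against DMSO without DMSO replicate 3 (1).

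In the fits between compounds, filters and left-out replicates or doses changed how many genes or treated arrays entered. Leaving out a DMSO array alone kept the same treated arrays in the fit. It changed only the subtracted DMSO mean, which these tests treat as known. The counts of genes that differed between compounds moved with most settings, and the cause was not tested further. They are given in the order fenbuconazole, imazalil and 2,4-D against the other two, then imazalil minus fenbuconazole, fenbuconazole minus 2,4-D and imazalil minus 2,4-D. Every probe set gave 61, 122, 63, 102, 55 and 100. Leaving out genes with a mean below 4 gave 3, 11, 3, 8, 1 and 1. The interquartile range as a covariate gave 53, 539, 431, 104, 128 and 695. Its medians at lower and upper doses were 4.446 and 4.477 with fenbuconazole, 4.456 and 4.486 with imazalil, and 4.533 and 4.528 with 2,4-D. The covariate thus partly followed the compound. The copy error gave 0 in all 6. Without a replicate they ran from 0 to 20, 14 to 92, 4 to 22, 10 to 24, 4 to 34 and 7 to 38, and without a DMSO replicate from 89 to 183, 183 to 237, 92 to 175, 163 to 238, 75 to 158 and 112 to 204. Quantile normalization moved fenbuconazole minus 2,4-D to 30. Leaving out the doses from 0.001 to 0.1 µM in turn gave 9, 5, 8, 2 and 10 for fenbuconazole, and all 6 doses in turn gave 11, 14, 16, 15, 10 and 10 for imazalil and 0, 9, 3, 0, 0 and 2 for 2,4-D against the others. For imazalil minus fenbuconazole, leaving out 0.003 to 0.3 µM gave 1, 9, 14, 11 and 13. For fenbuconazole minus 2,4-D, leaving out 0.001 to 0.1 µM gave 2, 6, 12, 0 and 3, and for imazalil minus 2,4-D, leaving out 0.01 to 0.3 µM gave 0, 3, 2 and 2.

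Over the 3 compounds together, the 4 genes between upper and lower doses became 7 with every probe set, 9 without dim genes and 9 with the interquartile range, 0 to 2 without a replicate and 0 without any 1 compound. The 3 genes of the F test among doses became 5, 7 with the interquartile range, 1 with quantile normalization, and 0 to 1 without a replicate.

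The replicate numbers did not pair the samples by the rule used, since deviations of same-numbered arrays correlated at medians of 0.01, 0.09 and 0.03, and over 0.1 in 22, 29 and 15 of 63 pairs per set. With the replicate number as a block the counts were 71 for imazalil and 27 for 2,4-D against the others, 56 for imazalil minus fenbuconazole, 37 for imazalil minus 2,4-D, 11 for upper minus lower doses and 8 for the F test over the 3 compounds, and 2 for upper minus lower doses of fenbuconazole. For the genes named, the 63 called values kept the call in 700 alternatives, lost it in 484 and reversed in 0. The 197 uncalled values stayed uncalled in 2888 alternatives and gained a call in 9.

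No alternative raised the number of arrays. With 3 DMSO arrays behind 54 treated ones, differences of the size of EXOC3 or WIF1 were not called after adjustment, and genes with a mean below 4 lie near the background.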

Other observations

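FAM76B, chosen after its values were seen, had the lowest difference between the upper and the lower 3 doses over the 3 compounds together (-0.39 ± 0.18, adjusted p = 0.862 in limma). It rested on a few arrays. With imazalil the arrays read 6.56, 6.87 and 4.96 at 0.1 µM and 7.51, 6.56 and 5.01 at 0.3 µM, and with fenbuconazole 5.72, 7.31 and 5.36 at 0.03 µM and 7.36, 7.27 and 5.06 at 0.1 µM, while the DMSO arrays of the 2 sets lay between 6.86 and 7.28. Its 3 other probe sets were at -0.06 ± 0.075, 0.03 ± 0.040 and 0.04 ± 0.062.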
